A study of Mus musculus with 32 samples.

Results

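The ID proteins are inhibitors of DNA binding. They carry a helix-loop-helix dimerisation domain but lack the basic region with which other members of the basic helix-loop-helix (bHLH) family touch DNA, so that an ID protein bound to an E protein (Tcf3, Tcf4 or Tcf12) keeps that partner from forming DNA-binding dimers with tissue factors such as Neurog2. Their genes are known as direct targets of bone morphogenetic protein (BMP) signalling through SMAD1, SMAD5 and SMAD4, and in the developing forebrain they are best known for holding progenitors back from differentiation. Id1 and Id3 are also known for their part in the growth of forebrain blood vessels. The family has 4 members in the mouse, and all 4 (Id1, Id2, Id3 and Id4) were present among the 32285 genes of each count table, where they were taken by symbol.

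The levels come from droplet single-cell RNA sequencing of dorsal telencephalon, from which the cerebral cortex develops, in C57BL/6J mouse embryos that were wild type (WT) or carried 1 intact copy of Chd8 (Chd8+/-), a gene for a chromatin remodelling protein. The tissue was taken at E12.5, E14.5, E16.0 or E17.5 (embryonic days), and each of the 8 groups of stage and genotype held 4 libraries, from 2 males (M1, M2) and 2 females (F1, F2). A WT and a Chd8+/- library of the same stage and name came from embryos matched by litter and sex, which gave 16 pairs, and per the labels' protocols the medial wall with the hippocampal primordium was removed. No group received a treatment, and how the Chd8 allele was made is not given in the sources used here.

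The genes lie on 4 chromosomes. By GENCODE M21, on build GRCm38, they are the protein-coding genes Id1 (ENSMUSG00000042745, chr2:152736251-152737410, plus strand), Id2 (ENSMUSG00000020644, chr12:25093799-25097140, minus strand), Id3 (ENSMUSG00000007872, chr4:136143497-136145755, plus strand) and Id4 (ENSMUSG00000021379, chr13:48261228-48266026, plus strand). Id4 overlaps 2 genes on the other strand, the antisense gene A330033J07Rik and the long noncoding RNA gene Gm49291, and whether counting used strand is not stated. Both had few reads, at most 0.329 and 0.342 counts in each 1000000 UMIs of any library. No annotated gene overlaps the other 3 members.

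Since the family is known for its response to BMP signals, the 250 bases before the transcription start were searched on both strands for GGCGCC, a palindrome that SMAD1 and SMAD5 are known to bind, and for CCAAT, the motif of the CCAAT box, which read from the other strand is ATTGG. The 2 motifs can share 2 bases, and no match in these 3 promoters overlapped another. The RefSeq table for GRCm38.p6 matched 3 of the 4 members (Id2, Id3 and Id4). Its start sites are not the ends of the GENCODE genes given above: the Id2 and Id3 stretches lie inside the longer GENCODE genes, and the Id4 stretch lies before its gene. GGCGCC was present at 1 place in the Id4 promoter, 148 bases before the start, and at 1 place in the Id2 promoter, 231 bases before it, and 9.54% of the 27025 promoters in the table held it. CCAAT or ATTGG was present at 2 places before Id4, at 3 places before Id2 and in 34.5% of all promoters, and the Id3 promoter held neither motif. The Id4 promoter had a GC content of 75.6%, against a median of 52% over all promoters and 62.8% for both Id2 and Id3. It is shown whole, since the fall of Id4 with stage in the progenitors is described at length, with the stretch of Id2 around its GGCGCC beside it for comparison, and capitals mark the motifs.
Id4, chr13:48260866-48261115, plus strand: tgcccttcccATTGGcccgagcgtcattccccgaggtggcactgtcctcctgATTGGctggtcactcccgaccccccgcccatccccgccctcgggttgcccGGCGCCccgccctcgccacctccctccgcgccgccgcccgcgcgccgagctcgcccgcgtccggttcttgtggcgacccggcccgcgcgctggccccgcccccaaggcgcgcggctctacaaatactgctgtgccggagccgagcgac
Id2, chr12:25096306-25096335, minus strand: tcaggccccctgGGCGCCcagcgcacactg

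The 32 libraries held 145082 barcodes, of which 138226 were retained as cells, and library totals ran from 14710694 to 66499864 UMIs. A UMI (unique molecular identifier) marks 1 captured RNA molecule. Median UMIs per cell went from between 8762 and 10677 in the WT libraries at E12.5 to between 4119 and 5484 at E17.5, and lay between 4166 and 10727 in the Chd8+/- libraries at E12.5. Chd8 itself was lower in the Chd8+/- library of 15 of 16 pairs, the exception being F1 at E17.5. Any 2 libraries shared at most 66 cell barcodes. Levels are the UMIs of a gene scaled to 1000000 UMIs of the cells concerned (CPM), with the cells of a library summed before libraries are compared. Per-library values are given in the order M1, M2, F1, F2.

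Cells were sorted into classes by a UMI of 1 of 5 marker genes: Sox2 for cortical progenitors (radial glia), Eomes for intermediate progenitors, Neurod6 for excitatory neurons, Gad2 for inhibitory neurons and Cldn5 for endothelial cells. These sets overlap, since 75.2% of the 31885 Eomes-detected cells also held a Neurod6 UMI and 49.3% of the 1747 Cldn5-detected cells did so. For comparisons between classes only cells with UMIs of exactly 1 marker were used, 87713 cells in all: 30847 with Sox2 only, 2507 with Eomes only, 52501 with Neurod6 only, 1393 with Gad2 only and 465 with Cldn5 only. The names were compared with lists of markers. The list of each class includes its sorting gene, which the rule required in that class and excluded from the others. That part of each difference was therefore fixed in advance. The summed level of the 8 radial glia markers lay between 3807 and 15817 CPM in Sox2-only cells by stage, against 408 to 865 CPM in Neurod6-only and 234 to 1498 CPM in Gad2-only cells. It was not low in the other 2 classes, at 1819 to 5797 CPM in Eomes-only cells and 1879 to 2632 CPM in Cldn5-only cells, and the Eomes-only means of E14.5, E16.0 and E17.5 lay above the Sox2-only mean of E12.5. The 5 endothelial markers summed to between 3392 and 6650.2 CPM in Cldn5-only cells against at most 7.37 CPM elsewhere. The classes were not clean. Neurod6-only cells held 10731 CPM of the 5 erythroid, 97.0 CPM of the 5 fibroblast and 225 CPM of the Cajal-Retzius markers at E12.5, and Gad2-only cells held 958 to 1214 CPM of the excitatory neuron markers from E14.5 on, against 3476 to 4354 CPM in Neurod6-only cells. The erythroid markers summed to 24089.7 and 38214 CPM in Eomes-only cells at E12.5 and E14.5 and to 45158 CPM in Cldn5-only cells at E17.5, where the 4 pericyte markers also reached 1903 CPM. The 5 fibroblast markers summed to 518 CPM in Cldn5-only cells at E12.5, where Id3 was highest in that class. The part of these cells in the results below was not tested.

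Id4 was highest in the progenitors, and its level there was lower at each later stage. In WT Sox2-only cells it stood at 1433, 1752, 1429.8 and 1277 CPM at E12.5, a mean of 1473 ± 199.9 CPM (SD, n = 4). At E14.5 the libraries gave 1123, 1530.2, 1546 and 1244 CPM, and at E16.0 723, 595, 838 and 795 CPM. At E17.5 they gave 229, 535, 338 and 523 CPM, a mean of 406 ± 149 CPM (SD, n = 4), and every E17.5 library lay below every library of the 3 earlier stages. Of the 882 WT Sox2-only cells of E17.5 only 475 held no UMI of Olig1, Olig2, Pdgfra or a Dlx gene, and in those 475 Id4 stood at 374, 744, 615 and 795 CPM, which overlapped the 620.2 to 885 CPM of E16.0 in cells chosen the same way. Along the path from progenitor to neuron the level declined at each stage: at E12.5 the mean was 558 CPM in Eomes-only cells and 194 CPM in Neurod6-only cells, and at E17.5 it was 156 and 48.5 CPM. The ranges of Sox2-only and Eomes-only libraries did not overlap at E12.5, E14.5 or E16.0 and did at E17.5.

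Tested within the WT libraries, with the library as a block, Id4 was 2.91-fold lower in Eomes-only than in Sox2-only cells (log2 fold change -1.54, SE 0.18, adjusted p = 1.86e-10, edgeR), 11.2-fold lower in Neurod6-only cells (log2 fold change -3.49, SE 0.18, adjusted p = 1.15e-25, edgeR) and 7.81-fold lower in Gad2-only cells (log2 fold change -2.97, SE 0.25, adjusted p = 6.89e-16, edgeR). The widest of these gaps was to the Cldn5-only cells, 31.3-fold (log2 fold change -4.97, SE 0.34, adjusted p = 1.62e-19, edgeR), where the mean was 45.4 CPM in 3 libraries at E12.5 and 27.4 CPM in 4 at E17.5. In that class Id4 stood at 0 CPM in the 2 libraries of E16.0 and in the lowest of E17.5. These levels lie near the floor, and the size of the fold is not firm. Over the 4 members and 4 class contrasts 13 of 16 tests were called at an adjusted p under 0.05, beside 41.4% of all genes tested for Eomes, 80.5% for Neurod6, 65.2% for Gad2 and 66.2% for Cldn5, so that a call by itself was common among genes in these contrasts.

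The share of cells with an Id4 UMI followed the same order. With each cell thinned to 2000 UMIs, a UMI of Id4 was found in 90.4% of WT Sox2-only cells at E12.5, 87.9% at E14.5, 70.4% at E16.0 and 43.3% at E17.5, and without thinning in 99.3% at E12.5 and 64.9% at E17.5. Thinning left out 15 of the Sox2-only cells of E17.5 for lack of depth and none of those of E12.5. In Neurod6-only cells the thinned share went from 26.9% to 7.49%. The Cldn5-only cells, in which Id4 was lowest, gave 8.67% at E12.5 and 2.38% at E17.5, a background that free RNA could also give. The median UMIs of a library lay between 5194 and 7357 in the Sox2-only and between 3083 and 7380.0 in the Cldn5-only cells of E17.5 before thinning. Among Gad2-only cells of E17.5 the level differed with Lhx6, a factor of interneurons from the medial ganglionic eminence: Id4 was at 138, 354, 204 and 238 CPM without an Lhx6 UMI and at 37.2, 30.2, 6.86 and 40.5 CPM with one. Those 2 sets, of 180 and 167 WT cells, did not overlap in their library values, and no test was run on them.

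**Figure D1:**
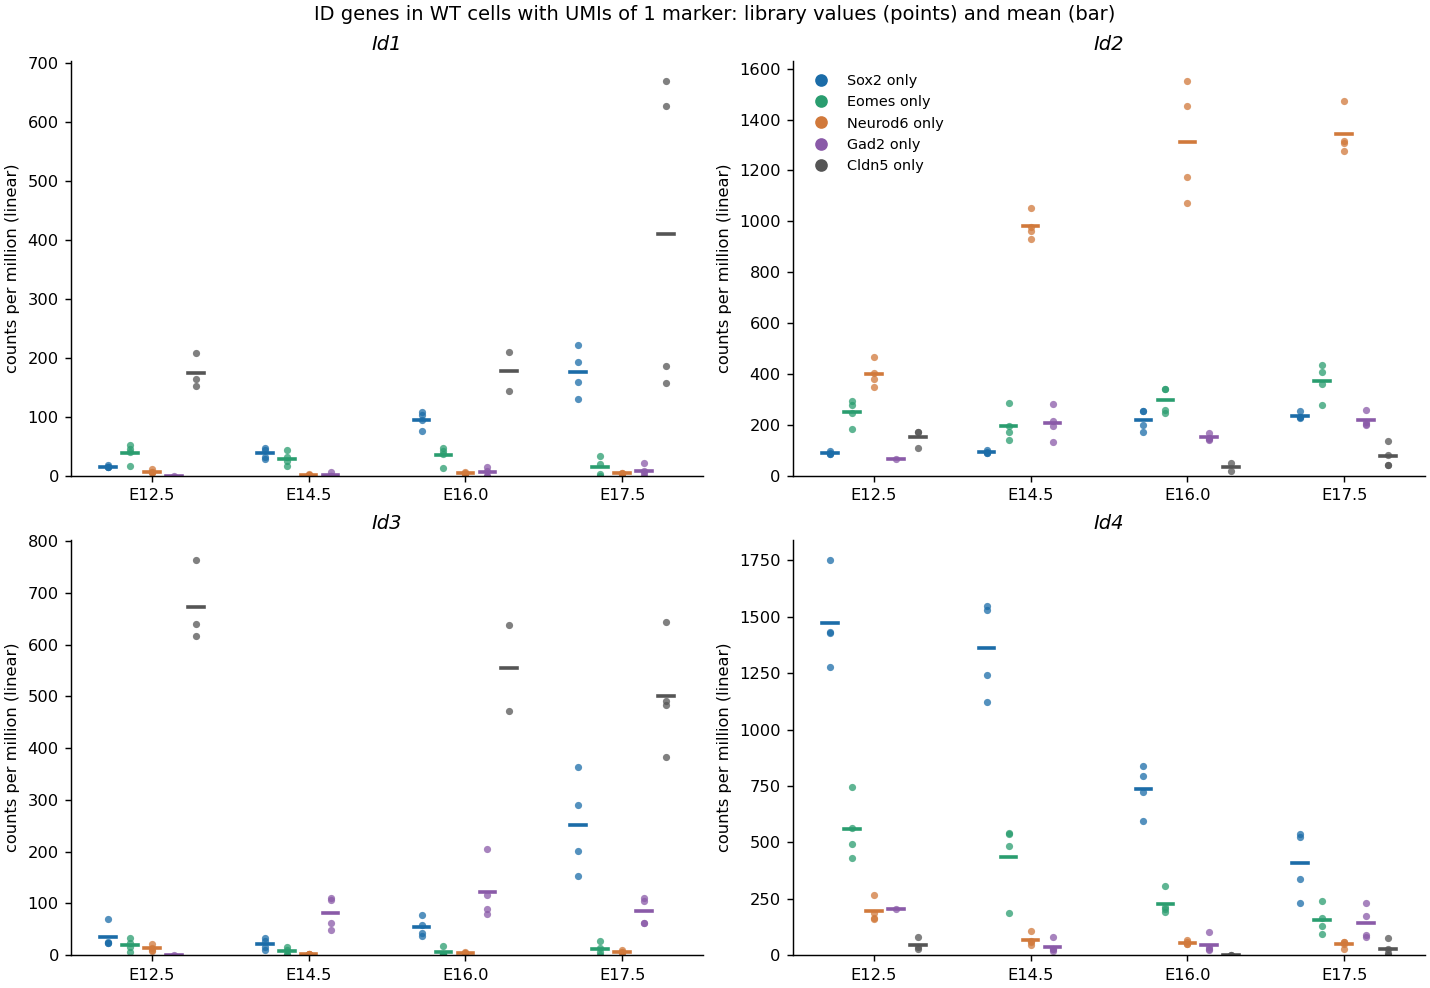
Level of Id1, Id2, Id3 and Id4 (linear CPM) in WT cells with UMIs of only 1 of 5 markers, by stage, where each point is 1 library with at least 10 such cells and each bar the mean of those points. Id4 in Sox2-only cells went from a mean of 1473 CPM at E12.5 to 406 CPM at E17.5, Id2 in Neurod6-only cells from 399.7 to 1343 CPM, and Id3 was highest in Cldn5-only cells wherever that class could be measured.

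Id2 ran the other way, with its highest level in the excitatory neurons. In WT Neurod6-only cells it stood at 466, 350.1, 380.3 and 402 CPM at E12.5 and at 964, 1054, 979 and 929.9 CPM at E14.5, with every library of the later stage above every one of the earlier. At E16.0 the libraries gave 1553, 1455, 1173 and 1070.4 CPM, and at E17.5 1314, 1474, 1307 and 1279 CPM, a mean of 1343 ± 88.2 CPM (SD, n = 4). The ranges of these last 2 stages overlapped, and those of the earlier steps did not. The Neurod6-only class had the highest Id2 level of all classes at each of the 4 stages, without overlap with the next.

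In WT Sox2-only cells Id2 was at a mean of 90.1 ± 5.45 CPM (SD, n = 4) at E12.5 and 236 ± 13.7 CPM (SD, n = 4) at E17.5, and in Eomes-only cells at 251 and 371 CPM. It was 6.75-fold higher in Neurod6-only than in Sox2-only cells (log2 fold change 2.75, SE 0.17, adjusted p = 5.04e-22, edgeR) and 1.89-fold higher in Eomes-only cells (log2 fold change 0.92, SE 0.18, adjusted p = 1.73e-05, edgeR). The differences of Gad2-only cells, 0.18 (adjusted p = 0.487), and of Cldn5-only cells, -0.45 (adjusted p = 0.123), did not pass the edgeR test. For the Cldn5-only cells the average spans stages that went both ways without overlap, with means of 151 against 90.1 CPM in Sox2-only cells at E12.5, 34.8 against 220.2 CPM at E16.0 and 76.8 against 236 CPM at E17.5. Leaving out WT F2 of E12.5 brought the Cldn5 difference to -0.79 (adjusted p = 0.00965) and leaving out WT M1 of E12.5 to -0.69 (adjusted p = 0.0234), both by edgeR, so that leaving out 1 of the 9 libraries of this class was enough to change the call.

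Within the neurons, cells with a UMI of Bcl11b, a factor of deep-layer neurons, held Id2 at each stage. At E12.5 they stood at 427 ± 41.4 CPM (SD, n = 4). At E17.5 the libraries gave 2079, 1381, 1861 and 1399 CPM, all above those of E12.5, with M1 and F1 above M2 and F2. Outside the 5 classes, microglia with a UMI of C1qc had 584, 679, 704 and 418 CPM of Id2 at E17.5, over 119 WT cells. The thinned share of Neurod6-only cells with an Id2 UMI was 48.8% at E12.5, 74.4% at E14.5 and 80.1% at E17.5.

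Id1 and Id3 had their highest means in the endothelial class at the 3 stages at which it could be measured, and were also present in progenitors of late stages. In WT Cldn5-only cells Id3 stood at 639, 764 and 617 CPM in the 3 libraries of E12.5 with at least 10 such cells and at 490.5, 483, 383 and 645 CPM in the 4 of E17.5. Id1 stood at 164, 208 and 152 CPM in those of E12.5 and at 187, 627, 157 and 669 CPM in those of E17.5, where M2 and F2 were far above M1 and F1. The values of M1 and F1 lay inside the range of Id1 in Sox2-only cells of that stage, 130 to 221 CPM, so that the 2 classes overlapped for Id1 at E17.5 and did not for Id3. At E14.5 no WT library had 10 Cldn5-only cells.

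Relative to Sox2-only cells of the same libraries, Id3 was 6.76-fold higher in Cldn5-only cells (log2 fold change 2.76, SE 0.34, adjusted p = 2.51e-10, edgeR) and Id1 3.38-fold higher (log2 fold change 1.76, SE 0.33, adjusted p = 4.99e-06, edgeR). In the excitatory neurons both were low: Id1 was 16.3-fold lower in Neurod6-only than in Sox2-only cells (log2 fold change -4.03, SE 0.29, adjusted p = 3.72e-19, edgeR) and Id3 13.4-fold lower (log2 fold change -3.75, SE 0.32, adjusted p = 2.02e-16, edgeR). With cells thinned to 2000 UMIs, at most 1.54% of WT Neurod6-only cells held an Id1 UMI at any stage, against 21.1% of Sox2-only cells at E17.5. Averaged over stages both were lower in Eomes-only cells too, Id3 with -2.42 (adjusted p = 5.78e-06) and Id1 with -0.86 (adjusted p = 0.0242) by edgeR. At E12.5, however, the mean of Id1 was higher in Eomes-only cells, 39.0 against 15.4 CPM, with overlapping libraries. Fibroblast markers were higher there too, with mean sums of 230 against 37.8 CPM, and their part was not tested. The call of Id1 was lost without the E17.5 libraries M1 and F1, -0.53 (adjusted p = 0.183), without M2 and F2, -0.67 (adjusted p = 0.0816), without any of 5 single libraries (WT F1, F2 or M2 at E16.0 and F1 or M1 at E17.5, adjusted p from 0.0529 to 0.0681), and in the Chd8+/- libraries, -0.68 (adjusted p = 0.0834).

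The inhibitory neurons separated these members. Id3 in WT Gad2-only cells stood at 61.2, 111, 107 and 49.0 CPM at E14.5 and 110.2, 62.1, 104 and 61.6 CPM at E17.5, and averaged over stages its difference from Sox2-only cells did not pass (log2 fold change 0.24, SE 0.42, adjusted p = 0.643, edgeR). The stages went both ways without overlap: means of 82.0 and 122 CPM in Gad2-only cells stood above 20.9 and 53.7 CPM in Sox2-only cells at E14.5 and E16.0, and 84.6 CPM stood below 252 CPM at E17.5. Id1 was 12.5-fold lower there (log2 fold change -3.64, SE 0.66, adjusted p = 2.73e-06, edgeR), with means of 1.63, 5.96 and 8.24 CPM from E14.5 on. These levels lie near the floor, since the lowest library stood at 0 CPM at each of these stages and the highest of E14.5 at 6.52 CPM. At E17.5 Id3 stood at 126, 121, 130.3 and 142 CPM in Gad2-only cells with an Lhx6 UMI and at 88.6, 25.3, 67.9 and 20.7 CPM in those without, the opposite order to that of Id4. The values without an Lhx6 UMI were higher in M1 and F1 than in M2 and F2, so that the size of the gap differed between these libraries.

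Mural and connective cells also held Id3. Over WT cells with a UMI of Rgs5, a pericyte gene, Id3 was at 448 ± 198 CPM (SD, n = 4) at E12.5 and 240.0 ± 103 CPM (SD, n = 4) at E17.5, and over the 348 cells of E12.5 with a UMI of Col1a1, a collagen gene of fibroblasts, it was at 358, 287, 288 and 309 CPM. At the same stage the 141 cells with a UMI of Pdgfra gave 398, 472, 304 and 467 CPM, whereas the 141 Pdgfra cells of E17.5 gave 239.7, 116, 44.3 and 190.0 CPM. Pdgfra marks fibroblasts as well as oligodendrocyte precursors, and the 2 stages need not hold the same cells.

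**Figure D2:**
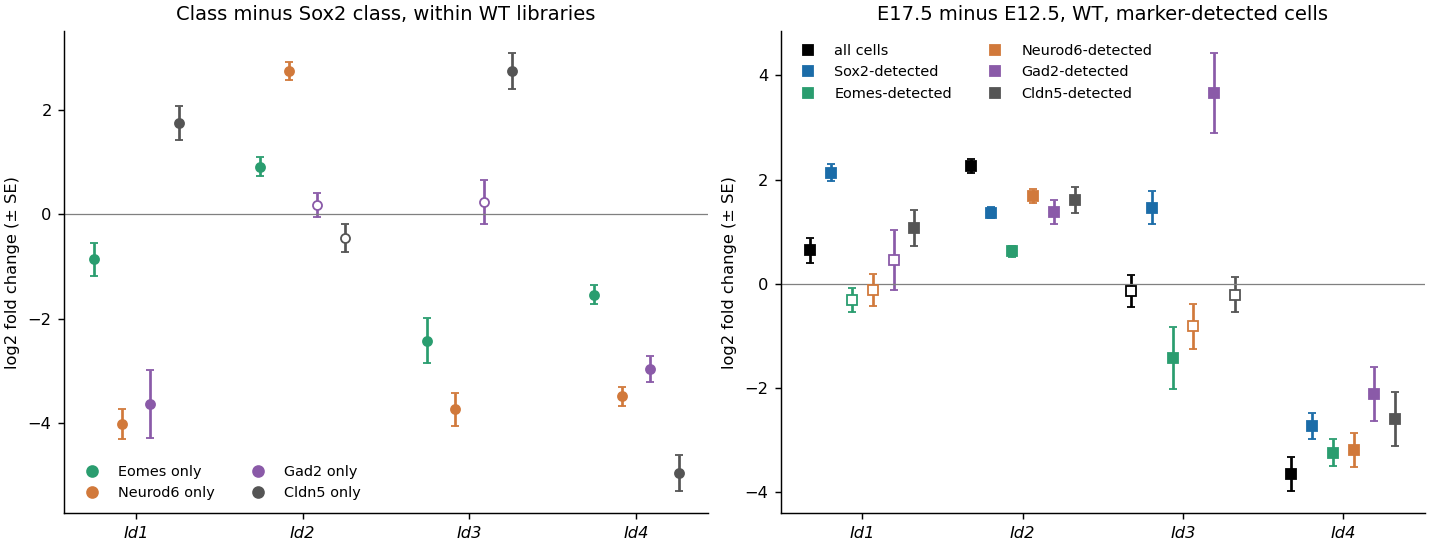
Fitted log2 fold changes (edgeR, y axis, bars ± SE) for each ID gene, on the left each class minus Sox2-only cells within WT libraries and on the right E17.5 minus E12.5 in WT for all cells and the 5 marker-detected sets, where filled symbols passed an adjusted p of 0.05 and open ones did not. Id4 was below 0 in every set of both panels, and Id2 was above 0 in every set on the right.

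The change from E12.5 to E17.5 was then tested on all cells with the marker, without regard to other markers. Id4 fell in each of these marker-detected sets and over all cells. In Sox2-detected cells its WT libraries gave 1274, 1589, 1297 and 1183 CPM at E12.5 and 123, 295, 189 and 292 CPM at E17.5, with no overlap, a 6.65-fold decrease (log2 fold change -2.73, SE 0.25, adjusted p = 1.29e-10, edgeR). The decrease was 9.42-fold in Eomes-detected cells, 9.13-fold in Neurod6-detected cells, 4.31-fold in Gad2-detected cells and 6.00-fold in Cldn5-detected cells, and 12.5-fold over all retained cells, a figure that also holds the change in the mix of cells. Cells with only Sox2, Eomes or Neurod6 showed smaller falls in their mean. With Sox2 it went from 1473 to 406 CPM, against 1336 to 225 CPM in Sox2-detected cells. With Eomes it went from 558 to 156 CPM, against 609 to 70.6 CPM. With Neurod6 it went from 194 to 48.5 CPM, against 518 to 60.2 CPM. The part of cells with several markers in the larger falls was not tested. The Cldn5 value went with cells that also held other markers: Id4 was at a mean of 602 CPM in Cldn5-detected cells of E12.5 and at 45.4 CPM in Cldn5-only cells, where the change to E17.5 was -0.72 (adjusted p = 0.518) by edgeR and the libraries of the 2 stages overlapped. With at least 2 marker UMIs the fall was still called in Cldn5 cells, and in Gad2 cells it was no longer called, at -0.46 (adjusted p = 0.701) by edgeR. Each of the 3 steps between neighbouring stages was a fall in Sox2-detected cells, -0.66 (adjusted p = 0.0243) to E14.5, -1.01 (adjusted p = 0.00542) to E16.0 and -1.06 (adjusted p = 0.00166) to E17.5 by edgeR, beside 38.1%, 9.29% and 22.1% of all genes called at those steps.

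Id2 rose over the same interval in every set. In Neurod6-detected cells the WT libraries went from 377, 288, 297 and 323 CPM to 1107, 1164, 1121 and 1001 CPM, again without overlap (log2 fold change 1.69, SE 0.14, adjusted p = 1.64e-11, edgeR), and the step from E12.5 to E14.5 made up most of it, 1.15 (adjusted p = 8.27e-08), where 37.3% of all genes were called. The rise was 2.58-fold in Sox2-detected, 1.54-fold in Eomes-detected, 2.60-fold in Gad2-detected and 3.06-fold in Cldn5-detected cells. Excitatory neuron markers, of the class in which Id2 was highest, moved with it: their mean sums went from 182 to 715 CPM in Sox2-detected, from 1202 to 1494 CPM in Eomes-detected, from 438 to 1076 CPM in Gad2-detected and from 198 to 1018 CPM in Cldn5-detected cells, and their part in the rise was not tested. The rise in Cldn5-detected cells was not seen in 2 narrower sets with fewer cells, and the cause was not tested. In Cldn5-only cells the change was -1.01 (adjusted p = 0.0847) and in cells with at least 2 Cldn5 UMIs -0.83 (adjusted p = 0.138) by edgeR. With at least 2 marker UMIs the rise of Id2 was 0.18 (adjusted p = 0.183) in Eomes cells and 0.62 (adjusted p = 0.23) in Gad2 cells, which did not pass.

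Id1 rose with age in the progenitors. Its WT values in Sox2-detected cells were 18.9, 16.5, 17.1 and 22.6 CPM at E12.5, 31.8, 34.1, 28.3 and 23.5 CPM at E14.5, 78.8, 74.3, 50.9 and 83.4 CPM at E16.0 and 105, 76.3, 94.9 and 95.7 CPM at E17.5, a 4.40-fold rise (log2 fold change 2.14, SE 0.16, adjusted p = 2.02e-12, edgeR) in which each of the 3 steps between neighbouring stages passed. The last step was not seen in Sox2-detected cells without a UMI of Olig1, Olig2, Pdgfra or a Dlx gene. Their WT means were 74.6 CPM at E16.0 and 75.5 CPM at E17.5, with overlapping libraries. In Sox2-only cells without those UMIs the means were 98.9 and 149 CPM, without overlap. From E12.5 to E17.5 Id1 did not pass the edgeR test in Eomes-detected cells, -0.31 (adjusted p = 0.259), or Neurod6-detected cells, -0.11 (adjusted p = 0.763). In Neurod6-only cells it fell from a mean of 7.36 to 4.01 CPM, -0.97 (adjusted p = 0.0158) by edgeR. Markers of other cells were lower in the same Neurod6-only cells at E17.5 than at E12.5, with mean sums of 408 against 865 CPM for radial glia, 2.77 against 97.0 CPM for fibroblasts and 4108 against 10731 CPM for erythroid cells, and their part in the fall was not tested. In Cldn5-detected cells the rise was 1.08 (adjusted p = 0.0161), but it rested on 2 libraries, since without M2 and F2 of E17.5 it was 0.26 (adjusted p = 0.664).

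Id3 rose late in the progenitors. Its WT values in Sox2-detected cells were 24.5, 23.8, 25.8 and 76.5 CPM at E12.5, 18.6, 29.2, 8.78 and 10.3 CPM at E14.5, 48.5, 39.1, 23.2 and 34.7 CPM at E16.0 and 121, 94.5, 150.3 and 104 CPM at E17.5. From E16.0 to E17.5 the rise was 3.41-fold (log2 fold change 1.77, SE 0.33, adjusted p = 0.000289, edgeR), and from E12.5 to E17.5 2.76-fold (log2 fold change 1.46, SE 0.32, adjusted p = 0.000233, edgeR). Markers of other cell types moved with this late level. The 5 markers of oligodendrocyte precursors (Pdgfra, Olig1, Olig2, Cspg4, Sox10) summed to between 1.36 and 1.69 CPM in the WT Sox2-detected cells of E12.5 and to between 204 and 476 CPM in those of E17.5, with none of the 5 at 0, and the 6 interneuron markers reached 142 to 552 CPM.

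Without the cells that held a UMI of Olig1, Olig2, Pdgfra or a Dlx gene, WT Id3 stood at 24.7, 21.2, 25.8 and 73.1 CPM at E12.5 and 43.0, 68.5, 39.0 and 72.8 CPM at E17.5. These groups overlapped only through WT F2 of E12.5, and the other WT libraries of E12.5 lay below all of E17.5. The Chd8+/- libraries did not overlap, at 13.6 to 21.9 CPM at E12.5 and 32.4 to 68.3 CPM at E17.5. In WT the rise was 0.44 (adjusted p = 0.28) by edgeR, no longer called. The changes of the other members were called in those cells too: Id1 1.85 (adjusted p = 8.15e-10), Id2 1.60 (adjusted p = 2.91e-13) and Id4 -2.45 (adjusted p = 1.45e-09). In the narrower set of Sox2-only cells treated the same way, Id3 was at 33.6 ± 20.7 CPM (SD, n = 4) at E12.5 and 141 ± 26.4 CPM (SD, n = 4) at E17.5, without overlap, and no test was run on that set.

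In the other sets Id3 behaved unevenly. It rose in Gad2-detected cells, from 1.88, 8.97 and 7.27 CPM in the 3 libraries of E12.5 with at least 10 such cells, a mean of 6.04 CPM that rests on 5 UMIs, to a mean of 64.4 CPM at E17.5 (log2 fold change 3.66, SE 0.77, adjusted p = 0.00142, edgeR), and the step from E12.5 to E14.5 was already 3.69 (adjusted p = 0.00108), where 20.1% of all genes were called. In Cldn5-detected cells it did not pass, -0.20 (adjusted p = 0.678), nor in Neurod6-detected cells, -0.82 (adjusted p = 0.1). In Neurod6-only cells it fell from a mean of 12.6 to 6.14 CPM, -1.09 (adjusted p = 0.036), and in Neurod6-detected cells without WT M1 of E12.5 the change was -1.06 (adjusted p = 0.0396), both by edgeR. The fibroblast and erythroid markers given above for Id1 moved with this fall too, as did those of Cajal-Retzius cells, 225 to 28.5 CPM, and of the hem and choroid plexus, 4.28 to 0.26 CPM, and their part was not tested. The fall in Eomes-detected cells, -1.42 (adjusted p = 0.0487), rested on 1 library: without WT F2 of E12.5 it was -0.39 (adjusted p = 0.593). By DESeq2 it was -1.41 (adjusted p = 0.0742), and leaving out single libraries of other groups, which enter through the shared estimate of spread, often brought the adjusted p just over 0.05. Without WT M1 of E17.5 it was -1.08 (adjusted p = 0.153), and without TMM scaling -1.30 (adjusted p = 0.0748) by edgeR.

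In all, 3 of 4 members were called over all cells (beside 67.8% of genes tested), 4 in Sox2-detected cells (59.5%), 3 in Eomes-detected cells (50.7%), 2 in Neurod6-detected cells (59.5%), 3 in Gad2-detected cells (16.5%) and 3 in Cldn5-detected cells (32.2%). More than 1 in 2 genes were called in the all-cell, Sox2, Eomes and Neurod6 sets, and a call there sets no member apart. The rise of Id1 over all cells, 0.65 (adjusted p = 0.0195), was lost without M2 and F2 of E17.5, 0.40 (adjusted p = 0.178), and the fall of Id4 in Gad2-detected cells, -2.11 (adjusted p = 0.00543), without M1 and F1, -1.57 (adjusted p = 0.0666). The call of Id1 in Cldn5-detected cells was also lost without WT M2 of E17.5, 0.92 (adjusted p = 0.0648), or without WT F2, 0.81 (adjusted p = 0.0918), all by edgeR. The Chd8+/- libraries gave their own values for the same interval in Sox2-detected cells: Id1 2.17 (adjusted p = 1.97e-12), Id2 1.00 (adjusted p = 5.2e-09), Id3 2.05 (adjusted p = 3.49e-06) and Id4 -3.08 (adjusted p = 1.19e-11) by edgeR, beside 67.2% of genes.

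The change from E12.5 to E17.5 was also compared between Neurod6-only and Sox2-only cells of the WT libraries. The gap of Id1 between the 2 classes widened from -1.09 on the log2 scale at E12.5 through -4.08 and -4.46 to -5.41 at E17.5, a difference of -4.33 (SE 0.36, adjusted p = 1.18e-09, edgeR). That of Id3 widened from -1.43 to -5.29, a difference of -3.86 (SE 0.43, adjusted p = 1.24e-07, edgeR). The Sox2-only cells of E17.5 hold the markers of other cell types described above, Id3 in them had a mean of 252 CPM with and 141 CPM without the Olig, Pdgfra and Dlx cells, and the difference was not tested without those cells. Id2 rose in both classes, and its excess in neurons was 2.12 at E12.5, 3.49 at E14.5 and 2.58 at E17.5, a difference of 0.46 (SE 0.11, adjusted p = 0.00181, edgeR).

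For Id4 the gap between the classes was -2.97 at E12.5, -4.27 at E14.5 and -2.99 at E17.5, a difference between the end points of -0.01 (SE 0.14, adjusted p = 0.954, edgeR). Its sign followed the definition of the classes, since it was -0.44 (adjusted p = 0.00291) with classes by detection alone and 0.40 (adjusted p = 0.00784) with at least 2 UMIs of the marker and none of the others. In this comparison 49.2% of all genes tested were called, and 3 of the 4 members.

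The partners and the inputs of the ID proteins were read in the same fits. Of the 3 E proteins, the partners that ID proteins bind, Tcf4 rose from E12.5 to E17.5 in WT Sox2-detected cells, by 1.19 on the log2 scale, and Tcf3 fell by 0.50, while Tcf12 was not called. The same 2 were called with the same signs in Neurod6-detected cells, Tcf4 at 1.45 and Tcf3 at -0.78, where 31.6% of all genes rose and 27.9% fell. In Neurod6-only against Sox2-only cells Tcf4 was higher, 0.53, and Tcf3 lower, -1.16, where 40.7% of all genes were higher and 39.8% lower. In the Sox2-detected cells 32.0% of all genes rose and 27.5% fell, and the median of all genes was 0.05.

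Of the tissue bHLH factors, many but not all of which bind DNA together with an E protein, 12 of 14 could be tested in Sox2-detected cells, and 8 rose and 3 fell (median 1.66). Markers of other cell types were higher in the same cells at E17.5 than at E12.5, with mean sums of 715 against 182 CPM for excitatory neurons, 359 against 1.52 CPM for oligodendrocyte precursors and 310.4 against 15.5 CPM for interneurons, and their part in the rise was not tested. The factors that rose included Olig1 (11.01) and Olig2 (7.15), factors of the oligodendrocyte lineage, and Neurod2 (2.10), a neuronal factor. These genes are themselves among the markers just given. Since the precursor markers summed to only 1.52 CPM at E12.5, the Olig values are folds over a level near 0 and their size is not firm. Of the 6 HES and HEY genes, most of them known as Notch targets, 1 rose (Hes6, known as an antagonist of Hes1) and 4 fell, with Hes1 at -2.18, Hey1 at -2.10, Hes5 at -0.47 and Hes6 at 0.40. In Neurod6-detected cells 5 of 6 fell and none rose, beside 27.9% of all genes that fell and 31.6% that rose. Progenitor markers were also lower in these cells at E17.5 than at E12.5. Their mean sums were 1267 against 1766 CPM for radial glia, a list that includes Hes1 and Hes5, and 701 against 1562 CPM for intermediate progenitors. Their part in the fall was not tested. Of 4 cell cycle inhibitors tested in Sox2-detected cells 2 rose (Cdkn2c, 1.26, and Cdkn1b, 1.08) and 1 fell (Cdkn1c, -0.56).

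The genes of the BMP pathway were read against the 32.0% of all genes that rose and the 27.5% that fell in Sox2-detected cells. Of 8 receptors tested 1 rose (Bmpr2, a type II receptor, 0.93) and 1 fell (Acvr2b, another, -1.40), and of 3 SMADs 1 rose (Smad5, 0.23). Among 10 inhibitors of the pathway 4 rose and 2 fell, with Nog, which binds BMP ligands outside the cell, at -1.21 and Smurf2, a ubiquitin ligase, at 0.53. Only 2 of 6 BMP ligand genes were abundant enough to test there, of which 1 fell, and none of the 6 in the class contrasts.

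The endothelial class, where Id1 and Id3 were high, differed from the progenitors in more of these genes. In Cldn5-only against Sox2-only cells 4 of 7 receptors were higher and 2 lower, 3 of 3 SMADs higher and 5 of 7 inhibitors higher and 2 lower, beside 27.0% of all genes higher and 39.2% lower. Of the receptors tested, Eng and Acvrl1 were near 0 in the progenitors, with a mean log2 CPM of 0.76 and -0.58 in Sox2-detected cells. They entered the test through the endothelial class, so that their part of the count was fixed by that entry. Eng, an endothelial co-receptor, was at 10.73, a size that is not firm since it was near 0 in the progenitors. Acvr1, a type I receptor, was at 2.34, and Bmpr1a, another type I receptor, at -1.94. Among the inhibitors Bambi, a decoy receptor, was at 4.43, Smad7, an inhibitory SMAD, at 1.95, and Nog at -5.65.

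In Sox2-only cells an Id3 UMI was more frequent in cells with an Id1 UMI than in those without, at each stage. Among the 867 WT Sox2-only cells of E17.5, each thinned to 2000 UMIs, an Id3 UMI was found in 33.3% of the 183 cells with an Id1 UMI and in 10.5% of the others. At E12.5 these shares were 11.6% and 4.70%, at E14.5 10.3% and 2.96%, and at E16.0 12.8% and 6.38%. The pairs with Id4 went both ways: an Id4 UMI was found in 79.3% of the cells with an Id3 UMI and 90.8% of those without at E12.5, in 76.9% and 88.3% at E14.5, and in 51.1% and 43.1% at E17.5. Many of these cells held UMIs of oligodendrocyte or Dlx genes, as counted above, and the 5 markers of oligodendrocyte precursors summed to a mean of 606 CPM in them, whose part in the overlap was not tested. In Cldn5-detected cells of E17.5 an Id3 UMI was found in 64.2% of the cells with an Id1 UMI and 9.36% of the others, over 256 cells, but in 9.84% of the cells with an Id2 UMI and 30.6% of those without. This set is a mix, since of 260 WT Cldn5-detected cells of E17.5 before thinning only 70 held no other marker. The part of the mix in these shares was not tested. The cells of a stage are pooled over 4 libraries here and are not replicates, and the shares are given as a description. Cycling cells, with a UMI of Mki67 or Top2a, and the rest of the Sox2-only cells had similar Id1 at E17.5, at 185 ± 49.6 CPM (SD, n = 4) and 155 ± 56.8 CPM (SD, n = 4), with overlapping libraries. At E12.5 they stood at 15.2, 15.97, 15.6 and 18.5 CPM and 10.9, 10.6, 10.7 and 14.4 CPM, without overlap.

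None of the 4 genes differed detectably between Chd8+/- and WT libraries when the stages were averaged. Over 6 sets of cells 0 of 24 tests were called by edgeR, with 1 at an unadjusted p under 0.05, and the largest difference was 0.50 on the log2 scale. With the matched pair as a block 0 were called and 3 had an unadjusted p under 0.05, and by DESeq2 0 and 2. Few genes were called at all: 0.364% over all cells, 0.528% in Sox2-detected, 0.319% in Eomes-detected and 0.219% in Neurod6-detected cells, and 0% in the other sets by edgeR. With the block these shares were 1.58%, 1.63%, 1.24% and 0.951%, and by DESeq2 0.716%, 0.933%, 0.472% and 0.452%, with 0% in the others again. In the lists of partners and pathway genes above, no gene was called in this average in the all-cell, Sox2, Neurod6 or Cldn5 sets. At E12.5, the only single stage at which these lists were read, 1 was, Hey2 in Sox2-detected cells (log2 fold change -1.03, adjusted p = 0.0351, edgeR), a gene below 10 CPM that is named after its value was seen. A test of whether the difference varied with stage called 0 of 4 members over all cells (edgeR, each adjusted p = 1.0, 0% of all genes called, and 0 at an unadjusted p under 0.05), and the block fit 0, with 1 unadjusted, and DESeq2 0 of the 2 members it gave an adjusted p, with 0 unadjusted and 0.0691% of all genes called.

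Id3 in the progenitors came nearest to a difference. It was lower in the Chd8+/- library of 14 of 16 pairs of Sox2-detected cells, and the averaged difference was -0.50 (SE 0.16, unadjusted p = 0.00437, adjusted p = 0.253, edgeR). With the pair as a block it was -0.45 (adjusted p = 0.072). At E12.5 the WT libraries gave 24.5, 23.8, 25.8 and 76.5 CPM and the Chd8+/- libraries 18.1, 13.7, 19.2 and 21.8 CPM. All 4 WT values lay above all 4 Chd8+/- values, and WT F2 stood far above the other 3.

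At that stage the difference was -0.97 (adjusted p = 0.097) by edgeR, where 1.23% of all genes were called. It was -0.82 (adjusted p = 0.0253) once the pair was a block, where 15.3% of all genes were called, -0.93 (adjusted p = 0.0495) by DESeq2, where 6.78% were, and -0.34 (adjusted p = 0.569) by edgeR without WT F2. WT F2 also stood apart in markers of the cortical hem and choroid plexus, tissue of the medial wall: Ttr, Folr1, Wnt8b and Wnt3a summed to 16.3, 15.9, 20.8 and 60.3 CPM in the WT libraries and to 12.3, 10.9, 12.4 and 9.70 CPM in the Chd8+/- libraries, with up to 1 and 2 of the 4 genes at 0. The 5 fibroblast markers summed to 11.8, 36.1, 32.5 and 53.5 CPM in WT and to between 7.72 and 30.6 CPM in Chd8+/-. The part of either in the Id3 difference was not tested.

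At single stages 0 of 96 tests were called by edgeR, with 4 at an unadjusted p under 0.05. At E12.5 it called 0.352% of all genes over all cells, 0.357% in Eomes-detected and 0.00684% in Neurod6-detected cells, at E16.0 0.0217% in Sox2-detected cells, at E16.0 and E17.5 0.00761% in Eomes-detected cells, and 0% in the other combinations apart from the 1.23% of Sox2-detected cells at E12.5 given above. The block fit called 3, with 18 at an unadjusted p under 0.05, and all 3 were at E12.5: Id3 in Sox2-detected cells, given above, Id3 in Neurod6-detected cells, -1.45 (adjusted p = 0.0415), where 4.5% of all genes were called, and Id2 in Sox2-detected cells, 0.23 (adjusted p = 0.0405). The E12.5 libraries differed in depth between genotypes, and its part was not tested. The WT values of Id3 in Neurod6-detected cells were 13.2, 22.1, 20.3 and 59.6 CPM and the Chd8+/- values 8.44, 12.9, 4.23 and 8.40 CPM, so that the lowest WT value was just above the highest Chd8+/- value and WT F2 stood apart here too. By edgeR the difference was -1.60 (adjusted p = 0.13), and without WT F2 -0.97 (adjusted p = 0.415).

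Id2 was lower in the Chd8+/- library of all 4 pairs at E17.5 in each of the all-cell, Sox2, Eomes and Neurod6 sets. In Neurod6-detected cells of that stage the WT libraries gave 1107, 1164, 1121 and 1001 CPM and the Chd8+/- libraries 975, 1071, 978 and 961 CPM, which overlapped, and the difference was -0.22 (adjusted p = 0.921) by edgeR and -0.22 (adjusted p = 0.282) with the pair as a block. At E12.5 the order was the reverse in 3 of 4 pairs of all cells and of Sox2-detected cells. Id1 was lower in 13 of 16 pairs of Sox2-detected cells, by 0.16 on the log2 scale (adjusted p = 0.57, edgeR). Id4 was lower in 9 of 16 pairs, and its difference in Sox2-detected cells was 0.05 (adjusted p = 0.973) by edgeR.

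**Figure D3:**
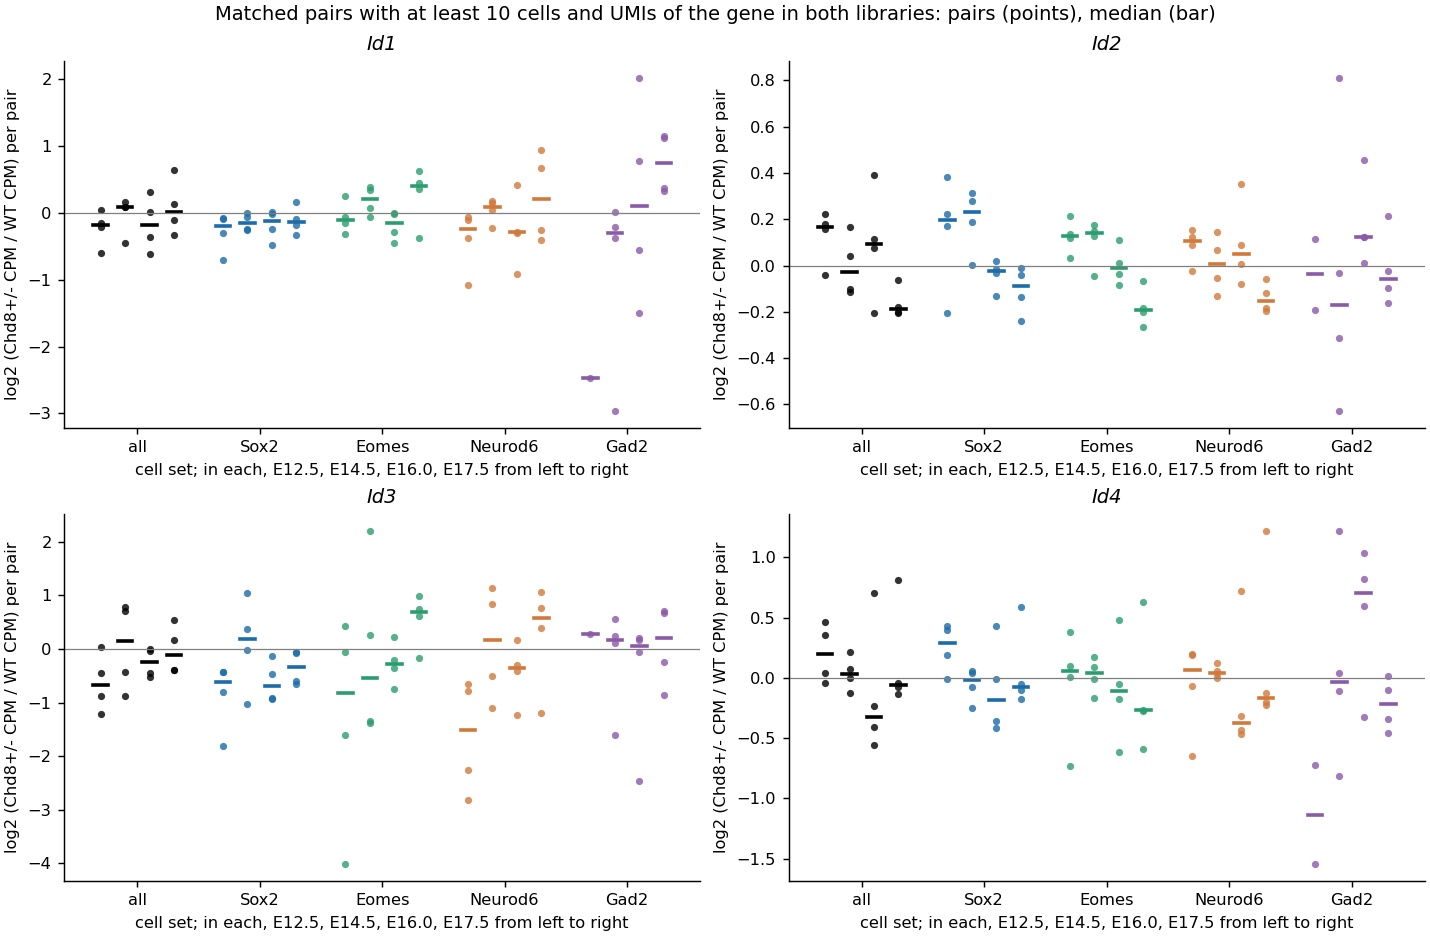
Log2 ratio of the Chd8+/- to the WT library (y axis) for each matched pair (points) and the median of the pairs (bars), by ID gene, cell set and stage, for pairs with at least 10 cells and a UMI of the gene in both libraries. Id3 lay below 0 in 14 of 16 pairs of Sox2-detected cells, and Id2 below 0 in all 4 pairs of E17.5 in the all-cell, Sox2, Eomes and Neurod6 sets.

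The E17.5 libraries fell into 2 sets that cut across genotype, and Id4 was among the genes that moved with them. The summed level of 10 immediate early and heat shock genes, which respond to handling of tissue, was 1177 and 765 CPM in WT M1 and F1 and 948 and 1021 CPM in their Chd8+/- partners, and 400.3, 407, 359.7 and 422 CPM in the M2 and F2 pairs. Id4 in Sox2-detected cells was at 123 and 189 CPM in WT M1 and F1 and at 295 and 292 CPM in WT M2 and F2, and the Chd8+/- libraries split the same way. The 6 interneuron markers split too, in the same Sox2-detected cells, at 142 and 190.0 CPM in WT M1 and F1 and 552 and 358 CPM in WT M2 and F2. In Sox2-detected cells Id1 did not split this way, and Id3 of the WT libraries split the other way, at 121 and 150.3 CPM in M1 and F1 and 94.5 and 104 CPM in M2 and F2. Without the Olig, Pdgfra and Dlx cells both were lower in M1 and F1. Id1 was at 61.5 and 63.4 CPM in WT M1 and F1 and 86.0 and 91.3 CPM in WT M2 and F2, and at 48.8 and 54.4 against 80.9 and 75.01 CPM in Chd8+/-. Id3 was at 43.0 and 39.0 against 68.5 and 72.8 CPM in WT, and at 32.4 and 36.6 against 45.8 and 68.3 CPM in Chd8+/-. The part of either gene group in these levels was not tested. The fall of Id4 from E12.5 to E17.5 held in either set, at -2.39 (adjusted p = 1.41e-08) without M1 and F1 and -3.28 (adjusted p = 5.34e-10) without M2 and F2, and Id2 in Neurod6-detected cells did not split. Within the neurons with a Bcl11b UMI, however, Id2 was higher in M1 and F1 than in M2 and F2. At E14.5 the summed level of the 10 immediate early and heat shock genes also split, by sex and across genotype. It was at 886 and 898 CPM in WT M1 and M2 and 501 and 543 CPM in WT F1 and F2. In Chd8+/- it was at 775 and 875 against 561 and 597 CPM, and its part in the levels of E14.5 was not tested.

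**Figure D4:**
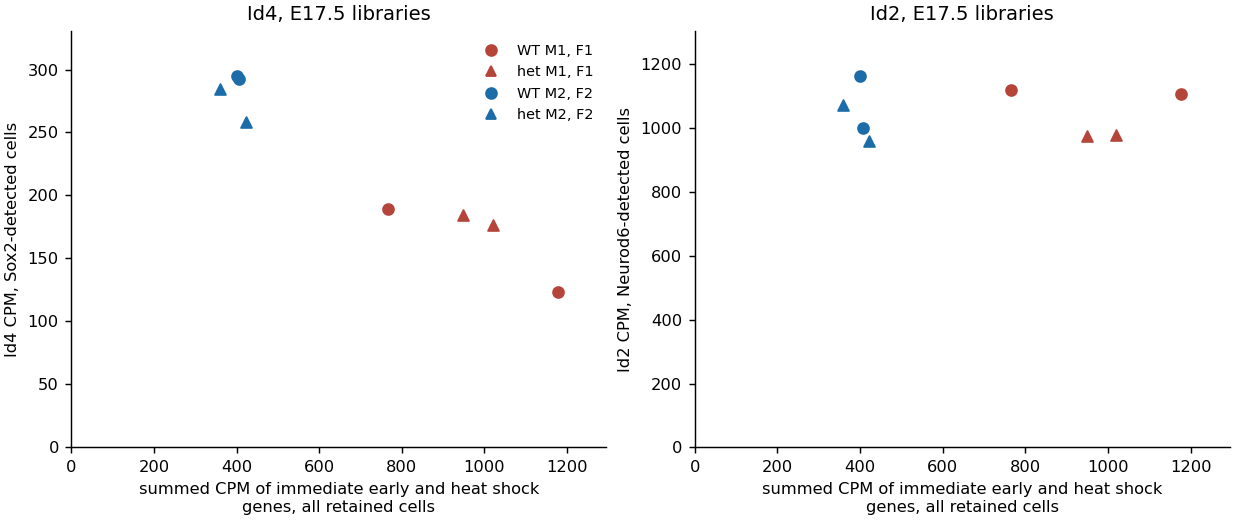
Level of Id4 in Sox2-detected cells (left, CPM) and of Id2 in Neurod6-detected cells (right, CPM) against the summed CPM of 10 immediate early and heat shock genes over all retained cells, for the 8 libraries of E17.5, with circles for WT, triangles for Chd8+/- (het) and colour for the 2 sets of pairs. The M1 and F1 libraries lie to the right, with Id4 between 123 and 189 CPM, and the M2 and F2 libraries to the left, with Id4 between 259 and 295 CPM.

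Over the 18 combinations of stage and class with at least 2 WT libraries, the genes whose log2 levels followed each member most closely were listed among 9940 genes. Id4 was followed by Dnaaf2 (Pearson r = 0.961), Sephs1, Hspd1 and Prim1, a DNA primase subunit. Id2 was followed by Gm16152 (r = 0.949), A330084C13Rik, Nfasc, an adhesion protein of the axon, and Abhd11. Id1 was followed by Fstl1 (r = 0.957), a secreted glycoprotein, Acadl, Crtap and Gng12, and Id3 by Rasa3 (r = 0.946), Glul, the glutamine synthetase of glia, Samd5 and Ptch1, the Hedgehog receptor. Without the Cldn5 class, over 15 points, Id3 was led by Ptch1 (r = 0.911) and Npas3, Id1 by Reep3 (r = 0.948) and Aspm, a spindle protein of progenitors, and Id4 by Nrm (r = 0.978) and Gins3, and Gm16152 stayed first for Id2. Between members, r was 0.70 for Id1 and Id3, -0.72 for Id2 and Id3 and -0.63 for Id1 and Id2 over the 18 points. These values depended on the Cldn5 class: without it r was 0.36 for Id1 and Id3, -0.59 for Id2 and Id3 and -0.44 for Id1 and Id2, and went from -0.05 to 0.73 for Id1 and Id4 and from 0.02 to -0.64 for Id2 and Id4. These points share libraries and markers, and the values are a description.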

How the data were processed

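Each library came from 1 embryo. The authors deposited matrices of raw UMI counts per gene and barcode, and per the submitters' processing notes STAR 2.7.9a, STARsolo, Cell Ranger and build mm10 were named, with no role given. Counting by strand is not given in the sources used here. A barcode was kept from 1000 UMIs and 500 genes up if no more than 10% of its UMIs were mitochondrial (143697 barcodes), and 5471 were removed as doublets by comparison with simulated ones, at 0.8% per 1000 cells. A class was a UMI of its marker. Counts were summed per library and class and fitted over all genes that passed edgeR's filter with edgeR 4.0.16 (R 4.3.3), with TMM scaling, the 8 groups as design and the quasi-likelihood test, and p-values were adjusted by Benjamini-Hochberg over all genes tested, with a call at an adjusted p under 0.05. A standard error is the size of the log2 fold change divided by the root of F. Gad2-detected cells were fitted in 30 libraries with at least 10 such cells, the others in 32. Class contrasts used WT libraries with at least 10 cells of exactly 1 marker, with the library as a block (16 libraries for Sox2, Eomes and Neurod6, 13 for Gad2 and 9 for Cldn5). Shares of cells were taken after thinning to 2000 UMIs with numpy 2.4.6. Likeness used log2(CPM + 5). DESeq2 1.42.0, other filters, other scaling, stricter cells and the pair as a block were alternatives, and the code was tested on simulated data. Same-numbered WT and Chd8+/- libraries deviated together (correlation over 0.1 in 15 of 16 pairs), and the labels match them by litter and sex. The members and the gene lists were chosen with earlier results of these data known. Named are the members and, per list and contrast, at most 4 called genes with a mean of at least 10 CPM, by size of change. Some genes of the lists are not reported here by name.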

Additional observations from a re-analysis of the deposited data

Results flagged for a closer look

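In 12 of 184 groups of 4 libraries 1 library stood far from the other 3 (a gap beyond Dixon's critical value for groups of 4). Chance alone gives this in about 1 in 20 groups. For Id3 the libraries were WT F2 at E12.5 over all cells (80.4 CPM against 27.7 to 35.1 CPM in the others) and in Sox2-detected cells (76.5 CPM against 23.8 to 25.8 CPM), Chd8+/- M1 at E16.0 over all cells (32.9 CPM against 18.0 to 19.9 CPM), Chd8+/- F1 at E14.5 in Eomes-detected cells (12.9 CPM against 2.09 to 2.73 CPM) and WT M1 at E17.5 in Neurod6-detected cells (7.76 CPM against 19.4 to 21.3 CPM). For Id4 it was WT F2 at E16.0 over all cells (330.1 CPM against 215 to 230.1 CPM), in Eomes-detected cells (167 CPM against 126 to 131 CPM) and in Neurod6-detected cells (136 CPM against 95.9 to 101 CPM), and WT M1 at E16.0 in Gad2-detected cells (60.6 CPM against 81.8 to 83.4 CPM). For Id2 it was Chd8+/- M2 at E17.5 in Neurod6-detected cells (1071 CPM against 961 to 978 CPM) and Chd8+/- M1 at E17.5 in Cldn5-detected cells (583 CPM against 482 to 489 CPM), and for Id1 WT F2 at E14.5 over all cells (11.4 CPM against 16.7 to 17.4 CPM). These sets share cells, so that the 12 are not independent.

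The change from E12.5 to E17.5 differed between Neurod6-only and Sox2-only cells of the WT libraries in 3 of the 4 members, by a test of that difference itself: -4.33 on the log2 scale for Id1, -3.86 for Id3 and 0.46 for Id2. Of all genes tested 49.2% did so.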

How the results depend on the processing

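Of the counts of members called, those of the class contrasts (13 of 16, between 12 and 14 with 1 library left out) and of the genotype averaged over stages (0 of 4 in each of 6 sets) stayed within 1.5 times under every alternative run. The change from E12.5 to E17.5 went from 3 to 1 members in Eomes and from 3 to 1 in Gad2 cells with at least 2 marker UMIs, from 2 to 4 in Neurod6-only cells and from 3 to 0 in Cldn5-only cells, where fewer cells entered. Leaving out 1 library gave 2 to 3 members over all cells, in Eomes-detected and in Cldn5-detected cells, 2 to 3 in Neurod6-detected cells, 3 in Gad2-detected and 4 in Sox2-detected cells. At single stages the genotype count was 0 of 96, 3 with the replicate block, 1 by DESeq2 and 0 to 1 with 1 library left out, the 1 being Id3 in Neurod6-detected cells at E12.5 without Chd8+/- M2, -1.86 (adjusted p = 0.0272). The pairing by litter and sex is in the labels, and the block changed no other call among the counts. Signs turned for Id2 from E12.5 to E17.5 in Cldn5 cells, -0.83 (adjusted p = 0.138) with at least 2 marker UMIs and -1.01 (adjusted p = 0.0847) in Cldn5-only cells against 1.61, and for the stage-by-class difference of Id4, 0.40 (adjusted p = 0.00784) against -0.01. The cause was not tested. Over single genes 6038 values kept their call and direction, 287 with no call changed sign, 47 lost the call, 13 gained it and 3 turned with a call. Of 48 recomputed mean levels of members 36 stayed within 1 SD of the libraries and 12 moved by more, 10 when each cell counted equally (Id3 in Sox2-detected cells of E17.5 from 117 to 85.2 CPM) and 2 with doublets kept. Depth limited Id1 and Id3 in neurons, where UMIs were few, and the Cldn5-only class held 465 cells. The choices on libraries M1, M2, F1 and F2 of E17.5 and on Olig or Dlx cells were made after seeing the data.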

Other observations

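Cells with a UMI of Trp73, a gene of Cajal-Retzius neurons of the hem, were uneven between libraries for Id3. The WT libraries of E12.5 gave 2.02, 33.0, 67.4 and 351 CPM, over 248 cells, and those of E14.5 8.27, 2.92, 4.23 and 0 CPM, over 108. Library F2 of E12.5 was the high one, as it was for Id3 in Sox2-detected cells. Id2 in the same Trp73 cells was even, at 131, 146, 145 and 172 CPM at E12.5. In Rgs5 cells Id2 was at a mean of 89.1 ± 32.3 CPM (SD, n = 4) at E12.5 and 315 ± 7.81 CPM (SD, n = 4) at E17.5, without overlap, while the Id3 values given above for those stages overlapped. No test was run on these sets of cells, which were small and may hold several cell types.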
